A study of Drosophila melanogaster with 16 samples.

Results

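*208-ΔF* is a line of *Drosophila melanogaster* in which CRISPR was used to remove the start of *Uhg4*, that is its promoter region together with exon 1, and DGRP_208 is the inbred line in which the deletion was made. The comparison described here sets the 4 libraries of *208-ΔF* against the 4 of DGRP_208, out of 16 libraries in the series, and covers the 16212 of 17490 counted genes whose median count over the 16 libraries was at least 2. Another 663 genes had no count in any library, and they are among the 1278 that fell under this minimum. Each library was made from ribosomal RNA-depleted total RNA of 30 whole flies, 3 to 5 days old, of one sex, and both lines had 2 biological replicates per sex. The labels name no treatment, and the sources used here do not state again for the RNA samples that the deletion flies were homozygous. The other 8 libraries are those of *208-ΔA* and *208-ΔG*, 2 further *Uhg4* deletions in the same background, and they entered the fit so that all groups shared one estimate of the spread between replicates.

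Some limits come with the line itself. All flies compared share the DGRP_208 genome, which is highly inbred, free of inversions and free of *Wolbachia*. *208-ΔF* is 1 deletion that was backcrossed to DGRP_208, and its stock has to be kept over a *CyO* balancer chromosome because homozygotes do not breed. The other deletion lines were made from the same parental line, so that anything carried along with an edited second chromosome cannot be told apart from the deletion within this comparison.

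*Uhg4* is a snoRNA host gene. Such genes are transcribed into a long noncoding RNA that is spliced, and the small nucleolar RNAs (snoRNAs) are released from the introns, after which they guide chemical modifications of other RNAs, mainly ribosomal RNA. The spliced exons of a host gene are often short-lived and carry no protein-coding information. The question put to the comparison is therefore which transcripts of a whole fly differ in level when this host gene is disrupted.

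Total counts of the 8 libraries lay between 21110845 and 44093287, and those of all 16 between 13902521 and 51954693. The sex labels held in every library compared: *Mst57Db*, an accessory gland gene, was read at 1409.9 to 2893 CPM (counts scaled to a common library size with TMM factors) in the 4 male libraries and at 0.844 to 33.3 in the 4 female ones, and the vitelline membrane gene *Vm26Ab* at 205 to 485 CPM in females and 1.00 to 6.05 in males. One library stood apart in this respect. The 33.3 CPM of *Mst57Db* came from *208-ΔF* female replicate 2, the other 3 female libraries having at most 1.68 CPM. Its summed level over 45 seminal fluid genes was 264 CPM against 61.0 to 108. Chemoreceptor genes, which are expressed in few cells of the head and appendages, differed widely between replicates. Their median level was 0.773 and 2.56 RPKM (CPM divided by gene length in kilobases) in the *208-ΔF* females, 1.91 and 0.749 in the males, 2.20 and 0.656 in the DGRP_208 females and 0.645 and 3.62 in the males, with overlapping ranges for the 2 lines.

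In the *Uhg4* locus itself the transcripts of the deleted gene were low in *208-ΔF*. *Uhg4* (FBgn0083124) lies on chromosome arm 2R at 9095273 to 9097312 on the forward strand, in dm6 coordinates. Its level was 0.672 and 0.484 CPM in the 2 female replicates of *208-ΔF* and 0.387 and 1.02 CPM in the males, against 6.66 and 6.67 CPM in DGRP_208 females and 1.89 and 0.974 CPM in DGRP_208 males. The female libraries of the lines were thus far apart, and the male ones overlapped, because the DGRP_208 males were themselves low. In reads, the *208-ΔF* females had 22 and 23 where the DGRP_208 females had 276 and 121, and the males had 9 and 19 against 66 and 33. Scaled for depth and summed over replicates, the *208-ΔF* females kept 8.41% of the DGRP_208 reads (exact 95% interval 6.04 to 11.5) and the males 46.5% (29.4 to 71.4), intervals that cover counting error only. The end of *Uhg4* shares 382 bases with *Ctu1*, and the use of strand in the counting is not given. Some of these few reads may therefore belong to *Ctu1*, so the percentages need not be what was left of *Uhg4*. The log2 fold change was −3.53 in females (adjusted p = 0.106, edgeR quasi-likelihood test with Benjamini-Hochberg adjustment over all genes, as throughout) and −1.04 in males (adjusted p = 0.979), and with the sexes averaged it was −2.28 ± 0.398 (SE; adjusted p = 0.0925). The targeted gene therefore did not pass the threshold of 0.05 in any of the 3.

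The clearest loss at the locus was of a snoRNA. *snoRNA:Or-aca5* (9095685 to 9095832), an orphan H/ACA snoRNA inside an intron of *Uhg4* whose target is not known, had 4 and 3 reads in *208-ΔF* females against 5185 and 1951 in DGRP_208 females, and 1 and 8 reads in *208-ΔF* males against 1259 and 716 in DGRP_208 males. These correspond to 0.122, 0.0631, 0.0430 and 0.430 CPM in the *208-ΔF* libraries and to 125, 108, 36.0 and 21.1 CPM in the DGRP_208 ones. Every *208-ΔF* library was below every DGRP_208 library of either sex. The reads left amounted to 0.0728% of the DGRP_208 level in females (exact 95% interval 0.0293 to 0.15) and 0.749% in males (0.342 to 1.43). With the sexes averaged, the log2 fold change was −8.63 ± 0.865 (SE; adjusted p = 0.00231).

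*snoRNA:Psi28S-2949*, which guides a pseudouridine in 28S ribosomal RNA and is the first snoRNA of the host gene, had 3, 1, 2 and 2 reads in the *208-ΔF* libraries and 116, 40, 11 and 3 in those of DGRP_208, in the order female 1, female 2, male 1 and male 2. The females of the lines were apart and the males close to each other at a handful of reads. Females of *208-ΔF* kept 1.90% of the control level (exact 95% interval 0.512 to 4.97), while in males the interval ran from 11.3 to 150% and no difference was detectable at this depth. The averaged log2 fold change of −3.27 ± 0.744 (SE) had an adjusted p of 0.327. The other 5 snoRNAs of the locus fell under the count minimum and were not tested. Summed over the 4 libraries of each line, *snoRNA:Me28S-G3255a* had 3 reads in *208-ΔF* and 21 in DGRP_208, *snoRNA:Me28S-A982a* 3 and 15, *snoRNA:Me28S-A982b* 3 and 14, *snoRNA:Me28S-G3255b* 2 and 1, and *snoRNA:Or-CD2* 0 in both.

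The neighbours of *Uhg4* behaved differently from each other. *Boot* (FBgn0033374; 9092506 to 9094658, reverse strand), a gene of the piRNA pathway that silences transposons in the germ line, begins 614 bases away from *Uhg4* and points the other way. It was at 2.87 and 6.01 CPM in *208-ΔF* females against 39.5 and 61.7 CPM in DGRP_208 females, and at 4.86 and 4.73 CPM in *208-ΔF* males against 3.64 and 6.05 CPM in DGRP_208 males. The difference was thus confined to the female libraries among the 8 compared, with a log2 fold change of −3.51 ± 0.454 (SE; adjusted p = 0.0539) in females and −0.01 (adjusted p = 0.997) in males. The difference between the sexes was 3.49 on the log2 scale, with an unadjusted p of 0.000129 and an adjusted p of 0.696. *Boot* shares bases with *Nadk2* on its own strand. In whole flies a lower level of a germline transcript can come from fewer germline cells or from less RNA per cell, and which of these applied was not tested. In females the median log2 fold change was −0.22 over 20 maternal RNAs, the lowest of them at −1.05. It was −0.17 over 28 piRNA pathway genes, *Boot* among them.

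*Ctu1* (9096931 to 9098525, reverse strand), which codes for an enzyme that modifies transfer RNA, shares 382 bases with the end of *Uhg4*. It was at 10.8, 17.8, 15.1 and 11.8 CPM in the *208-ΔF* libraries and at 17.5, 11.4, 9.51 and 18.1 CPM in the DGRP_208 libraries. The lines overlapped in both sexes, with an averaged log2 fold change of −0.03. Whether the counting used strand is not given in the sources used here, so reads in the shared stretch may belong to either gene.

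**Figure D1:**
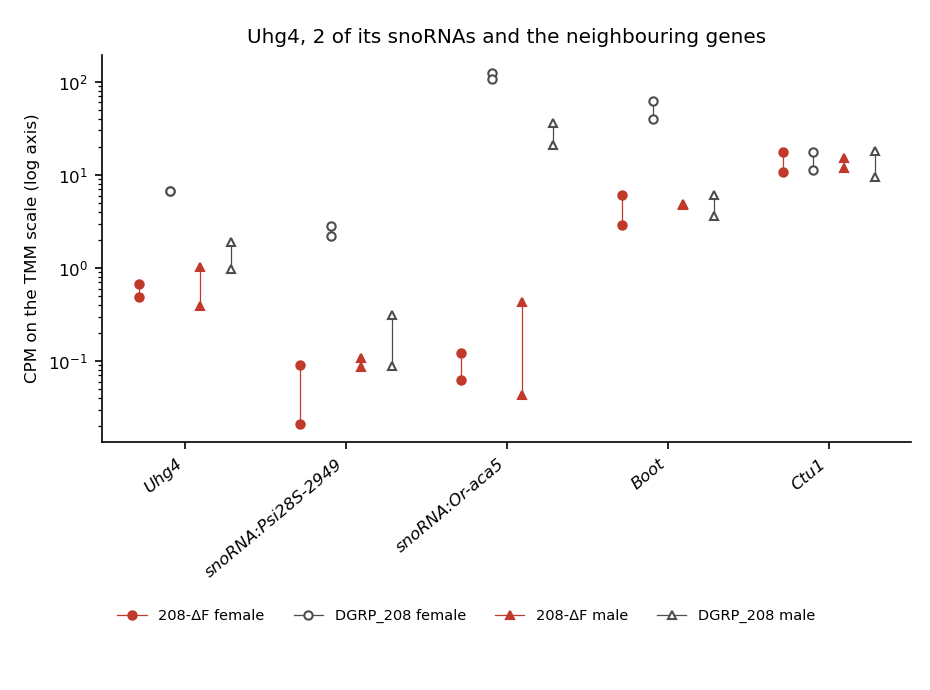
Levels of the tested transcripts of the *Uhg4* locus in each of the 8 libraries, in CPM on a log axis, with 1 point per library, *208-ΔF* filled and DGRP_208 open, and the sexes in separate symbols. *snoRNA:Or-aca5* was at 0.0430 to 0.430 CPM in *208-ΔF* and at 21.1 to 125 CPM in DGRP_208, while *Uhg4* and *Boot* were apart in females and overlapped in males.

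Across all genes, 12 of 16212 (0.074%) differed between *208-ΔF* and DGRP_208 with the sexes averaged at an adjusted p below 0.05. Of these, 8 were higher in *208-ΔF* (0.0493%) and 4 lower (0.0247%). At an adjusted p below 0.1 there were 27 genes (0.167%), and at an unadjusted p below 0.05 there were 820 (5.06%), of which 629 were higher (3.88%) and 191 lower (1.18%). The 8 higher genes were *TotM*, *TotA*, *TotC*, *Diedel*, *CtsL3*, *BaraB*, *CG43133* and *tim*. The 4 lower ones were *snoRNA:Or-aca5*, *Nepl5*, *Fign* and *Cyp12a5*. In all 12, the libraries of the lines did not overlap in either sex. The genes were called on these same libraries, so this describes the calls and is not separate support for them. Over all genes, 2.51% were higher and 1.25% lower in both sexes without overlap. Of the 12 genes, 6 lie on chromosome 2, 5 on chromosome 3 and 1 on the X chromosome. These counts were not set against the share of tested genes on each chromosome, so no excess can be read from them.

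Of the 8 higher genes, 3 were Turandot genes. They code for small secreted proteins that the fat body releases into the blood of the fly after infection, heat or other stress. *TotM* (2L, 5329857 to 5330464) was at 178 and 269 CPM in *208-ΔF* females and 234 and 389 CPM in *208-ΔF* males. In DGRP_208 it was at 14.3 and 22.4 CPM in females and 11.4 and 9.83 CPM in males. The lowest *208-ΔF* library was far above the highest DGRP_208 one, and the averaged difference was 18.9-fold (log2 4.24 ± 0.372, SE; adjusted p = 0.00184).

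*TotA* and *TotC* sit side by side in a cluster on 3R that spans 34483 bases from the first to the last Turandot gene. *TotA* was at 973 and 918 CPM in *208-ΔF* females and 1253 and 1944 CPM in the males, against 128 and 203 CPM in DGRP_208 females and 173 and 143 CPM in the males, a 7.60-fold rise (log2 2.93 ± 0.272, SE; adjusted p = 0.00193). *TotC* was at 1036, 962, 1053 and 1620.4 CPM in *208-ΔF* and at 187, 329, 189 and 130.4 CPM in DGRP_208, a 5.69-fold rise (log2 2.51 ± 0.28, SE; adjusted p = 0.005). For both genes the 2 lines were separate in females as in males, with the wider gap in males.

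The other cluster members did not pass the threshold. *TotX* was at 104, 120.4, 146 and 285 CPM in *208-ΔF* against 16.8, 33.5, 36.7 and 24.3 CPM in DGRP_208 (log2 fold change 2.49, adjusted p = 0.0507), and *TotB* at 4.73, 2.88, 3.05 and 6.45 CPM against 0.869, 1.10, 0.716 and 0.443 CPM (log2 fold change 2.49, adjusted p = 0.0937). Neither gene had overlapping lines, although *TotB* was read at a low level. *TotZ*, *TotE* and *TotF* had log2 fold changes of 0.85, −0.78 and −0.16 and overlapping lines in at least one sex. Over the 8 tested Turandot genes, 3 rose and none fell, beside 0.0493% of all genes called higher, 5 had an unadjusted p below 0.05, all higher, beside 3.88% of all genes, and the median log2 fold change was 2.49, beside 0.01 over all genes.

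*Diedel* (3R, 29493852 to 29494267) codes for a small secreted protein that tempers immune signalling and is strongly induced by infection. It was at 31.8 and 60.4 CPM in *208-ΔF* females and 43.8 and 67.1 CPM in the males, against 3.26 and 2.76 CPM in DGRP_208 females and 1.60 and 2.48 CPM in the males. This was the widest called rise by fold, at 20.3-fold (log2 4.35 ± 0.419, SE; adjusted p = 0.00193). The Turandot genes and *Diedel* are known targets of JAK/STAT signalling, in which secreted Unpaired ligands act through the receptor Dome, the kinase Hop and the transcription factor Stat92E. Of the 12 tested genes of that pathway, none passed the threshold in edgeR, beside 0.074% of all genes. None had an unadjusted p below 0.05, beside 5.06%, and with 12 genes a count of 0 lies near these shares. The median log2 fold change of the 12 was −0.07 (range −0.29 to 0.13). Whether the activity of the pathway differed was not tested. The pathway's feedback inhibitor *Socs36E*, itself a target, had 0.13.

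*CtsL3* (FBgn0037396; 3R, 6025826 to 6027238), a cathepsin L-like cysteine protease, had the smallest p of the comparison. Its level was 73.0 and 68.4 CPM in *208-ΔF* females and 87.0 and 84.2 CPM in *208-ΔF* males, against 24.2 and 18.5 CPM in DGRP_208 females and 10.9 and 17.2 CPM in DGRP_208 males. Replicates were close together in *208-ΔF*, and the averaged rise was 4.49-fold (log2 2.17 ± 0.172, SE; adjusted p = 0.00137). The other 9 tested cathepsin genes did not pass the threshold.

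*BaraB*, a secreted peptide of the Baramicin family of immune peptides, was at 20.2, 22.2, 31.6 and 36.5 CPM in *208-ΔF* and at 6.68, 10.7, 11.1 and 7.76 CPM in DGRP_208 (log2 fold change 1.57 ± 0.192, SE; adjusted p = 0.0104). Its lines were separate in both sexes. The gene lies on 2R, 160827 bases from *Uhg4*. *CG43133* (X, 18129585 to 18130178), a gene without a name, was low throughout, at 3.08, 3.43, 2.80 and 4.03 CPM in *208-ΔF* and 0.627, 0.717, 0.286 and 0.354 CPM in DGRP_208. All 4 *208-ΔF* libraries were nonetheless above all 4 of DGRP_208 (log2 fold change 2.84 ± 0.387, SE; adjusted p = 0.0237).

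*tim* (2L, 3493986 to 3508119), which codes for the light-sensitive partner of Period in the circadian clock, showed the smallest of the called differences. It was at 187 and 149 CPM in *208-ΔF* females and 190.4 and 195 CPM in the males, against 96.3 and 93.1 CPM in DGRP_208 females and 114 and 94.3 CPM in the males, a 1.81-fold rise (log2 0.86 ± 0.119, SE; adjusted p = 0.0253). The difference was alike in females (0.83) and males (0.89). Among the 15 tested clock genes, *tim* alone passed the threshold. *Clk*, which activates *tim* transcription, had a log2 fold change of 0.38 (adjusted p = 0.881), and *vri*, another Clock target, 0.16. The time of day at which the flies for RNA were frozen is not given in the sources used here.

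Of the lower genes, *Nepl5* had the smallest p. *Nepl5* (2L, 6381266 to 6383419), a member of the neprilysin-like family of metalloproteases, was at 34.1 and 38.5 CPM in *208-ΔF* females and 51.1 and 32.9 CPM in *208-ΔF* males, against 133 and 153 CPM in DGRP_208 females and 132 and 136 CPM in the males. The fall was 3.55-fold (log2 −1.83 ± 0.176, SE; adjusted p = 0.00193), and no *208-ΔF* library came near a DGRP_208 one. *Nepl5* was the only one of 26 tested neprilysin and neprilysin-like genes to pass the threshold. It shares bases with *DIP-epsilon* on the opposite strand.

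*Fign* (2L, 3316794 to 3319872), the fidgetin ATPase that severs microtubules, was at 16.1, 18.5, 15.8 and 14.5 CPM in *208-ΔF* and at 53.3, 58.1, 54.3 and 58.4 CPM in DGRP_208. Both sexes were alike within each line, and the fall was 3.46-fold (log2 −1.79 ± 0.191, SE; adjusted p = 0.00369). *Fign* shares bases with *CG3277* on the opposite strand. *Cyp12a5* (3R, 19132648 to 19134704), a mitochondrial cytochrome P450, was at 26.7, 25.7, 30.2 and 26.1 CPM against 63.8, 73.4, 65.5 and 43.8 CPM, a 2.26-fold fall (log2 −1.17 ± 0.16, SE; adjusted p = 0.0237). It was the only one of 82 tested cytochrome P450 genes to pass.

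**Figure D2:**
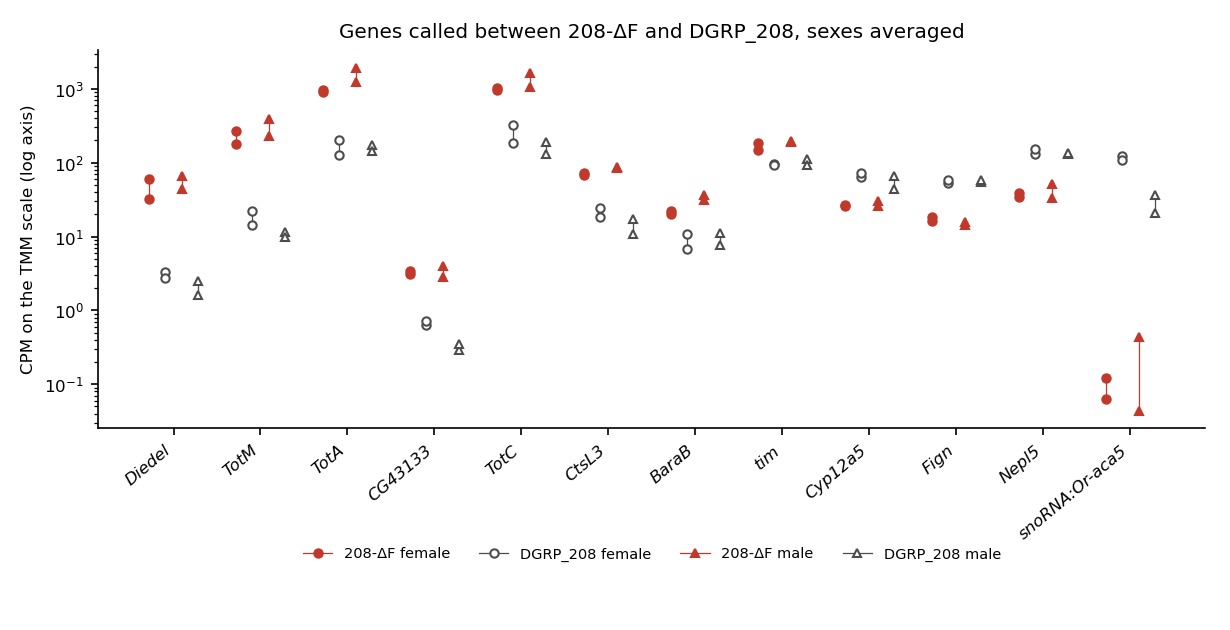
Level of each of the 12 called genes in each of the 8 libraries, in CPM on a log axis, with 1 point per library, *208-ΔF* filled and DGRP_208 open, and a thin line joining the 2 replicates of a sex. For every gene the points of the lines are apart within each sex, from *tim* at 149 to 195 against 93.1 to 114 CPM to *snoRNA:Or-aca5* at under 1 CPM in all *208-ΔF* libraries.

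The calls were not equally firm. *CtsL3*, *TotM*, *TotA*, *TotC*, *Diedel*, *Nepl5*, *Fign* and *snoRNA:Or-aca5* stayed below an adjusted p of 0.05 when any one of the 8 libraries was left out. The other 4 did not. *BaraB* lost its call without *208-ΔF* female replicate 2, *208-ΔF* male replicate 2, DGRP_208 female replicate 1 or DGRP_208 male replicate 2 (largest adjusted p 0.0872). *Cyp12a5* kept its call only without *208-ΔF* female replicate 1 or DGRP_208 male replicate 2 (largest adjusted p 0.150), *CG43133* only without *208-ΔF* female replicate 1 (0.208) and *tim* only without *208-ΔF* female replicate 2 (0.300). The count of calls ran from 8 without DGRP_208 female replicate 1 to 55 without *208-ΔF* female replicate 1, 50 of them higher and 9 of them members of the seminal fluid and testis lists. When only the 8 libraries entered the fit, which leaves fewer degrees of freedom for the spread, 3 of the 12 genes were called, *snoRNA:Or-aca5* (adjusted p = 0.0190), *TotM* (0.0190) and *Diedel* (0.0212). The per-gene linear model on unlogged values called 5 of the 12, among which the Turandot genes and *Diedel* were missing.

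A further 15 genes had an adjusted p between 0.05 and 0.1, of which 12 were higher and 3 lower. Besides *TotX*, *TotB*, *Uhg4* and *Boot* they included 5 genes of the immune response, with values below, and the small heat shock gene *Hsp23*. *CR10102*, a pseudogene, had a log2 fold change of 1.10, with 47.0 to 62.5 CPM in *208-ΔF* and 20.7 to 30.0 CPM in DGRP_208, and missed the threshold by the smallest margin. *Ugt37A2*, a UDP-glycosyltransferase, an enzyme class that attaches sugars to small molecules, had −0.85 (adjusted p = 0.0537). The unnamed genes *CG43968*, *CG15784* and *CG5388* had 1.21, 0.92 and 1.65. In 25 of the 27 genes below 0.1 the lines did not overlap in either sex, *Uhg4* and *Boot* being the exceptions. The 27 were picked by their p on these same libraries, so this too is not separate support.

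Antimicrobial peptide and Bomanin genes were higher in *208-ΔF* as a list, although *BaraB* alone passed the threshold. These peptides are made in the fat body and blood cells under the Toll and Imd pathways. Of the 39 tested, 37 had a positive fold change, beside 52.5% of all genes, and 22 had an unadjusted p below 0.05, all of them higher, beside 3.88% of all genes. The median log2 fold change was 0.67, beside 0.01 over all genes, and it lay between 0.54 and 0.76 when any one library was left out. In 17 of the 39 the *208-ΔF* libraries were above those of DGRP_208 in both sexes, beside 2.51% of all genes.

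*AttC*, an attacin active against Gram-negative bacteria, was at 84.0 and 102 CPM in *208-ΔF* females and 66.7 and 23.8 CPM in the males, against 31.6 and 39.0 CPM in DGRP_208 females and 6.36 and 9.21 CPM in the males (log2 fold change 1.97 ± 0.312, SE; adjusted p = 0.0599). The diptericins act on the same class of bacteria. *DptA* was at 38.3, 65.5, 43.9 and 12.5 CPM against 16.8, 20.9, 3.78 and 4.43 CPM (2.12, adjusted p = 0.0692), and *DptB* at 24.6, 35.9, 19.0 and 4.73 CPM against 14.8, 9.92, 1.09 and 1.27 CPM (2.31, adjusted p = 0.0792). In each of the 3 genes *208-ΔF* male replicate 2 was the lowest of its line, and it was still above both DGRP_208 males.

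*Mtk*, the antifungal and antibacterial metchnikowin, was at 51.8, 85.9, 28.5 and 20.1 CPM in *208-ΔF* and at 20.8, 28.6, 7.13 and 7.20 CPM in DGRP_208 (1.62 ± 0.282, SE; adjusted p = 0.0925). It overlaps *Stacl* on the same strand, so a part of its reads may be shared. *Dro*, *AttA*, *CecA2* and *CecB*, all peptides of the response to Gram-negative bacteria, had log2 fold changes of 1.71, 1.73, 1.38 and 1.80, with adjusted p from 0.212 to 0.447. *AttA* and *AttB* are near-identical copies and uniquely aligned reads may be split between them. *Drs*, the antifungal peptide that reports Toll activity, had 0.98 (adjusted p = 0.782), made up of 0.12 in females and 1.84 in males. The Bomanins, short peptides of the Toll response, were closer to the control, for example *BomS3* at 0.76 and *BomBc1* at 0.67.

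Genes upstream of these peptides were tested as well. Of 36 tested genes of immune recognition and signalling, none passed the threshold in edgeR, 3 had an unadjusted p below 0.05 in the higher direction and 1 in the lower, beside 3.88% and 1.18% of all genes, and the median log2 fold change was 0.04. *Tep2*, a thioester protein that binds microbes in the blood, came nearest, at 247, 229, 238 and 246 CPM in *208-ΔF* against 114, 136, 130.5 and 85.9 CPM in DGRP_208 (1.04 ± 0.164, SE; adjusted p = 0.0566). All 4 *208-ΔF* libraries lay within a narrow band above the control. *PGRP-SC2*, an amidase that degrades peptidoglycan in the gut, had the opposite sign, at −0.95 (adjusted p = 0.356).

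Markers of the cells that make these peptides were measured beside them. None of 16 blood cell (hemocyte) markers passed the threshold in edgeR, 5 had an unadjusted p below 0.05, all higher, beside 3.88% of all genes, and no marker was at 0. Their summed level was 2515 to 3810 CPM in *208-ΔF* and 1603 to 3312 CPM in DGRP_208, with *Sr-CI*, a scavenger receptor of phagocytes, at 0.55 and *Hml*, the clotting protein hemolectin, at 0.45 on the log2 scale. For 18 fat body markers the sums were 5258 to 6897 CPM and 3854 to 6293 CPM, with 7 higher and 1 lower at an unadjusted p below 0.05, beside 3.88% and 1.18% of all genes. These ranges overlapped over all 8 libraries. Within males the hemocyte sums did not, at 2515 and 2610.0 CPM in *208-ΔF* against 2231 and 1603 CPM in DGRP_208, and 9 of the 16 markers were higher there without overlap, beside 16.7% of all genes. The part of either list in the levels of the immune genes was not tested.

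**Figure D3:**
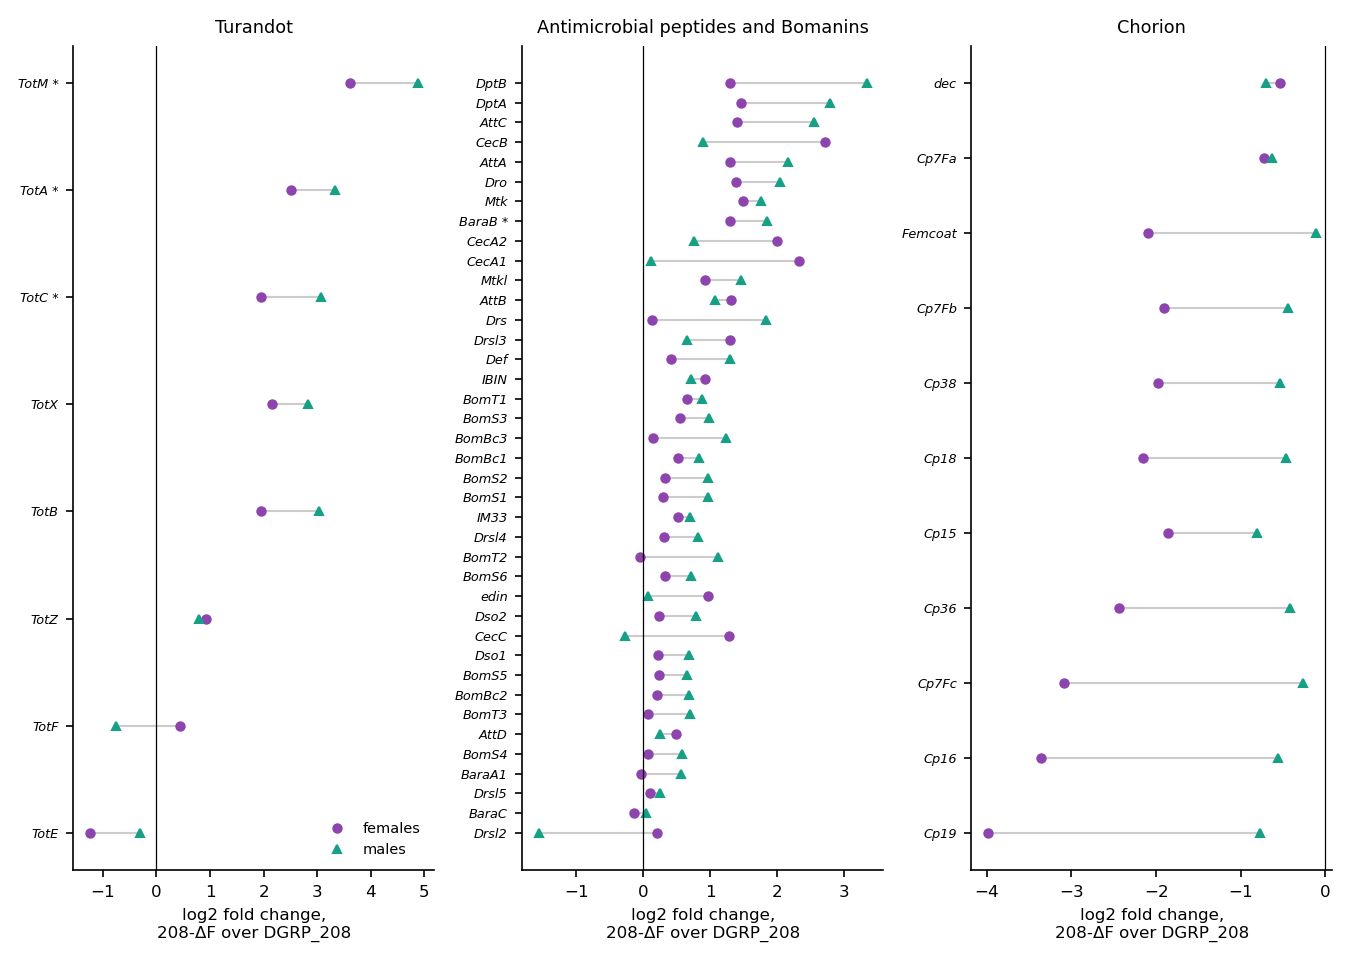
Log2 fold change of *208-ΔF* against DGRP_208 for the tested Turandot, antimicrobial peptide and Bomanin, and chorion genes, with a circle for females, a triangle for males and an asterisk at genes called with the sexes averaged. The Turandot median was 1.95 in females and 2.92 in males, that of the antimicrobial peptides and Bomanins 0.52 and 0.82, and that of the chorion genes −2.10 and −0.54.

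Taken by sex, the comparison has 2 libraries a side. In females 0 of 16212 genes (0%) passed an adjusted p of 0.05 in edgeR, with 562 (3.47%) at an unadjusted p below 0.05 and 8 at an adjusted p below 0.1. The count of 0 rests on the tool and on single libraries: limma-voom called 10 genes, DESeq2 70 and the per-gene linear model 17, and edgeR called 69 without *208-ΔF* female replicate 1, of which 12 belong to the seminal fluid and testis lists. In males 5 genes (0.0308%) rose, *CtsL3*, *TotM*, *TotA*, *Diedel* and *TotC*, and none fell, with 513 genes (3.16%) at an unadjusted p below 0.05. Their log2 fold changes were 2.60 (adjusted p = 0.0083), 4.87 (0.0193), 3.34 (0.021), 4.76 (0.0337) and 3.07 (0.0397). All 5 were also called with the sexes averaged. Each of the 5 lost its call without DGRP_208 male replicate 1, and all but *CtsL3* lost it without DGRP_208 male replicate 2. *TotA*, *Diedel* and *TotC* also lost it without *208-ΔF* male replicate 2 or *208-ΔF* female replicate 1. *Diedel* and *TotC* lost it in further refits, among them the one without *208-ΔF* male replicate 1. With single libraries left out, the male log2 fold changes were at least 2.12, 4.34, 2.88, 4.29 and 2.61, in the same order.

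No gene differed between the sexes in its response to the deletion at an adjusted p of 0.05 (0 of 16212 in edgeR, 0%). At an unadjusted p below 0.05 there were 310 genes (1.91%), the smallest adjusted p was 0.640, limma-voom called 0, DESeq2 5 and the per-gene linear model 8, and edgeR called 1 without *208-ΔF* female replicate 1. The 5 genes called in males had female fold changes of 1.73, 3.61, 2.52, 3.93 and 1.95, in the order above, so each was higher in females as well.

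The gene with the smallest p for a difference between the sexes was *CG14834*. It was at 5.49 and 7.57 CPM in *208-ΔF* females against 22.5 and 31.4 CPM in DGRP_208 females (log2 fold change −2.04, adjusted p = 0.0558), and at 18.9 and 18.3 CPM against 13.7 and 13.1 CPM in males (0.47), with an unadjusted p of 3.95e-05 for the difference (adjusted 0.640). Females of the line were below their controls and males slightly above. On the male side *CG13901* was at 59.2 and 74.4 CPM in *208-ΔF* against 24.6 and 14.9 CPM in DGRP_208 (1.76, adjusted p = 0.0865), while the 4 female libraries lay between 9.26 and 12.6 CPM.

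Several cuticle genes were low in *208-ΔF* females. *Lcp65Ag2*, a structural cuticle protein, was at 2.26 and 1.66 CPM against 19.4 and 13.8 CPM in DGRP_208 females (−3.08, adjusted p = 0.106). *TwdlD*, of the Tweedle family of cuticle proteins, was at 1.04 and 1.70 CPM against 13.2 and 12.1 CPM (−3.20, adjusted p = 0.319), and *CG15022* at 0.672 and 1.47 CPM against 14.2 and 12.2 CPM (−3.61, adjusted p = 0.106). The female libraries of the lines were separate in all 3 genes, but the leading genes of a sex were named only where its libraries did not overlap. In the male libraries of both lines the levels of the 3 genes were below 2 CPM. Of 120 tested cuticle genes, 9 had an unadjusted p below 0.05 in females, all lower, beside 1.19% of all genes, and none passed the threshold in edgeR. The list as a whole was not lower in females, where 66 of the 120 genes had a positive fold change, beside 53.8% of all genes, and the median was 0.07, beside 0.02. With the sexes averaged, 10 of the 120 were higher and 5 lower at an unadjusted p below 0.05, beside 3.88% and 1.18% of all genes. Without overlap in both sexes, 12 were higher and 2 lower, beside 2.51% and 1.25% of all genes. The averaged median was −0.17, and it ran from −0.64 without *208-ΔF* female replicate 2 to 0.41 without DGRP_208 male replicate 2.

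**Figure D4:**
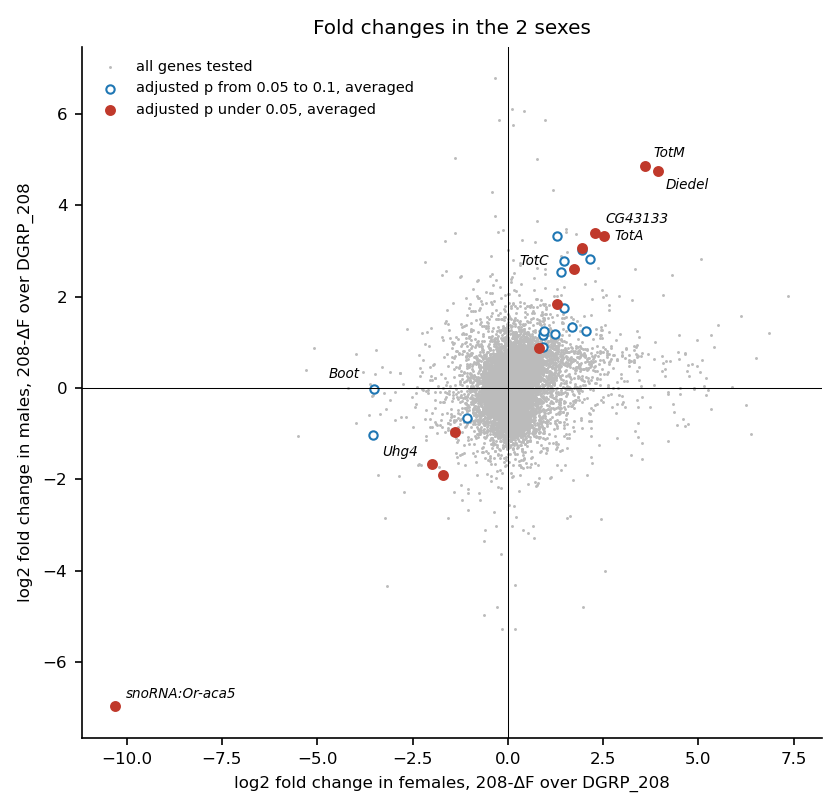
Log2 fold change of *208-ΔF* against DGRP_208 in females (x axis) and in males (y axis), with 1 small point per tested gene, filled circles for the 12 called genes and open circles for those with an adjusted p from 0.05 to 0.1. The called genes lie in the same direction in both sexes, and *Boot* lies off the diagonal, at −3.51 in females and −0.01 in males.

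The eggshell genes mark the last products of egg formation. Chorion genes, which follicle cells transcribe in the last stages of egg formation, were lower in *208-ΔF* females in the fitted values of all 11 members, but none passed the threshold in edgeR. In females 5 of the 11 had an unadjusted p below 0.05, all lower, beside 1.19% of all genes, in 8 the libraries did not overlap, beside 11.1% of all genes, and the median log2 fold change was −2.10, beside 0.02. *Cp36*, a major early chorion protein, was at 37.9 and 35.1 CPM in *208-ΔF* females and 121 and 273 CPM in DGRP_208 females (−2.43). *Cp19*, a later one, was at 6.59 and 8.37 CPM against 95.7 and 142 CPM (−3.99). The summed chorion level was 634 and 685 CPM in *208-ΔF* females and 1149 and 3426 CPM in DGRP_208 females, so that the controls differed more from each other than the lower one did from *208-ΔF*. With the sexes averaged the median was −1.31, and it was −0.86 without DGRP_208 female replicate 2 and −0.40 without DGRP_208 male replicate 2.

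Vitelline membrane genes, which follicle cells express before the chorion, showed no such order. Their summed level was 2269 and 1105 CPM in *208-ΔF* females and 1418 and 2404 CPM in DGRP_208 females. The median averaged log2 fold change was −0.35 over 13 genes and ran from −0.95 to 0.48 with single libraries left out. In females 1 gene had an unadjusted p below 0.05, in the lower direction, beside 1.19% of all genes. Yolk protein genes, expressed in the fat body and follicle cells, had a median of −0.78 in females over 4 genes. Of these, 3 were negative, where 53.8% of all genes were positive, and 2 were lower without overlap, beside 11.1%. In males, where they are read at a far lower level, the median was 1.14. The averaged median of 0.12 joins these opposite signs and ran from −0.69 to 0.45 with single libraries left out. *Yp1* was at 601 and 272 CPM in *208-ΔF* females against 679 and 1030.3 CPM in DGRP_208 females.

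Transcripts of the male reproductive tract separated the 2 female replicates of *208-ΔF* from each other. The summed level of 32 testis genes was 110 and 490 CPM in *208-ΔF* females and 217 and 95.7 CPM in DGRP_208 females, and that of the seminal fluid genes 67.0 and 264 CPM against 108 and 61.0 CPM. With the sexes averaged the median log2 fold change was 0.86 for the testis list and 0.39 for the seminal fluid list, with 10 and 7 members at an unadjusted p below 0.05, all higher, beside 3.88% of all genes, and no member called in edgeR. Without *208-ΔF* female replicate 2 the medians were 0.00 and −0.25. In males alone they were 0.51 and −0.15.

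Stress, growth and metabolic genes outside the called ones gave few differences. Among 20 tested heat shock genes *Hsp23* was at 26.2, 13.9, 53.1 and 60.8 CPM in *208-ΔF* and at 5.79, 6.67, 27.5 and 17.5 CPM in DGRP_208 (1.51, adjusted p = 0.082), separate within each sex. *lncRNA:Hsromega*, the stress-responsive noncoding RNA of the nucleus, went the other way, with at most 1802 CPM in *208-ΔF* and 2492, 3666, 6174 and 2378 CPM in DGRP_208 (−1.39, adjusted p = 0.441). The list as a whole had a median of 0.16.

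*Ilp6*, an insulin-like peptide of the fat body, was at 41.5, 41.6, 39.2 and 46.5 CPM in *208-ΔF* and 31.5, 33.2, 30.9 and 25.4 CPM in DGRP_208 (0.48, adjusted p = 0.627), a small difference without overlap between the lines. The other 22 tested genes of insulin signalling had an unadjusted p above 0.05, and the median of the list was 0.02. Of 21 genes of iron and haem metabolism, *Ppox*, which carries out a late step of haem synthesis, had 0.52 (adjusted p = 0.447), and in males it was at 57.0 and 60.2 CPM against 32.9 and 28.7 CPM (0.93). The larvae's storage protein gene *Lsp2*, counted among the fat body markers, was at 14.6, 5.97, 22.8 and 26.2 CPM against 0.989, 5.07, 2.58 and 2.15 CPM (2.57, adjusted p = 0.674).

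Among snoRNAs and ribosomal protein genes the medians of females and males had opposite signs, a difference between the sexes that no gene passed singly in edgeR. Of 172 tested snoRNAs, *snoRNA:Or-aca5* alone passed the threshold. In females 123 of the 172 had a negative fold change, where 53.8% of all genes had a positive one. The female median was −0.28 and 55 were lower without overlap, beside 11.1% of all genes. In males 122 had a positive one, beside 53.4% of all genes, and the median was 0.27. Of the 172, 31 were higher in males without overlap, a share near the 16.7% of all genes. The summed male snoRNA levels overlapped, at 920 and 1114 CPM in *208-ΔF* against 1044 and 522 CPM in DGRP_208. Averaged over the sexes the median was −0.00. It was 0.17 without DGRP_208 male replicate 1 and −0.18 without DGRP_208 male replicate 2. The library protocol was made for long RNA, and how well it samples RNAs as short as snoRNAs was not tested. Among 8 snoRNA host genes, none passed the threshold in edgeR and *Uhg4* was the only one with an unadjusted p below 0.05. Their median was 0.33. The 22 genes of snoRNA-protein particles and ribosomal RNA processing had a median of 0.14, with no call in edgeR. The 87 ribosomal protein genes had no call either, and their averaged median of −0.00 also joins opposite signs. In females 77 of the 87 were negative (median −0.24) and 19 were lower without overlap, beside 11.1% of all genes. In males 84 were positive (median 0.24), beside 53.4%, but 7 were higher without overlap, beside 16.7%. The summed male levels overlapped, at 27353 and 33144 CPM in *208-ΔF* against 35267 and 15944 CPM in DGRP_208. The median difference between the sexes was 0.49, beside 0.01 over all genes. The averaged median was 0.22 without DGRP_208 male replicate 1 and −0.22 without DGRP_208 male replicate 2.

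For other tissues no list had a called member. With the sexes averaged, the median log2 fold change was 0.15 for 15 neuron genes, 0.19 for 28 sarcomere genes, 0.03 for 21 photoreceptor genes, −0.13 for 20 genes of the mitochondrial genome, −0.13 for 28 piRNA pathway genes and −0.07 for 20 maternal RNAs. Single libraries moved several of them across 0. With one library left out the sarcomere median ran from −0.07 to 0.53, that of the mitochondrial genome from −0.36 to 0.20 and that of the piRNA pathway from −0.30 to 0.13. DGRP_208 male replicate 2 stood apart here, with a summed sarcomere level of 31986 CPM against 87441 CPM in DGRP_208 male replicate 1.

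Digestive enzyme genes of the midgut, secreted into the gut lumen, were lower in *208-ΔF* females as a list. Their summed level was 12346 and 9210.2 CPM in *208-ΔF* females and 12923 and 14979 CPM in DGRP_208 females, without overlap. In females 27 of the 53 genes were lower without overlap, beside 11.1% of all genes, and the median log2 fold change was −0.35, beside 0.02. In males the sums were 8539 and 8503 CPM against 12148 and 6548 CPM and overlapped. Over both sexes 45 of the 53 were negative, where 52.5% of all genes were positive, and the median was −0.28. At an unadjusted p below 0.05, 1 gene was higher and 5 were lower, beside 3.88% and 1.18% of all genes. No midgut gene passed the threshold in edgeR. Nor did any of 14 ethanol response genes and 19 sleep genes, functions in which deletion flies were assayed.

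The last comparison set *208-ΔF* against the other deletion lines, *208-ΔA* and *208-ΔG*, to find where it differs from them. With both others averaged, 0 of 16212 genes (0%) passed in edgeR, and 0 in limma-voom or in the linear model per gene, the smallest adjusted p was 0.367 and 1009 genes (6.22%) had an unadjusted p below 0.05, 959 of them higher in *208-ΔF* (5.92%). DESeq2 called 12, and edgeR called 54 without *208-ΔF* female replicate 1. Against *208-ΔA* alone 1 gene passed (0.00617%), with 1358 (8.38%) at an unadjusted p below 0.05. Against *208-ΔG* alone 0 passed (0%), although 6284 genes (38.8%) had an unadjusted p below 0.05 and 4554 an adjusted p below 0.1, with a smallest adjusted p of 0.0622.

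The gene that passed against *208-ΔA* was *Srg3*, named here after its value was seen. It was at 52.4, 40.4, 30.9 and 31.9 CPM in *208-ΔF* and at 6.21, 9.21, 9.32 and 11.2 CPM in *208-ΔA* (log2 2.10 ± 0.211, SE; adjusted p = 0.0142), while *208-ΔG* had 37.1, 43.2, 26.1 and 35.6 CPM and DGRP_208 had 38.7, 40.8, 16.3 and 26.4 CPM. *208-ΔA* was thus the line that stood apart, and *208-ΔF* was not far from the control. *Fign* was at 35.5, 36.3, 40.9 and 57.5 CPM in *208-ΔA* and at 18.5, 23.4, 12.2 and 20.8 CPM in *208-ΔG*. For this gene *208-ΔF* lay 1.38 below *208-ΔA* on the log2 scale (adjusted p = 0.0934) and close to *208-ΔG*.

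For the 12 genes called in *208-ΔF*, the other lines can be set beside it only as values, since all 3 comparisons use the same 4 DGRP_208 libraries. Of the 12, 9 were also called in *208-ΔA* and 9 in *208-ΔG*, where 27 genes (0.167%) and 44 genes (0.271%) were called in all, and 6 were called in both. *TotM* had log2 fold changes of 4.24 in *208-ΔF*, 5.33 in *208-ΔA* and 3.44 in *208-ΔG*. *Diedel* had 4.35, 5.41 and 3.56, and *CtsL3* 2.17, 2.19 and 1.54. For these genes *208-ΔF* lay between or level with the other lines.

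*tim* had 0.86 in *208-ΔF*, 1.00 in *208-ΔA* (adjusted p = 0.00766) and 0.23 in *208-ΔG* (adjusted p = 0.218). *Cyp12a5* had −1.17, −0.60 (adjusted p = 0.293) and −1.40 (adjusted p = 0.00973), and *Nepl5* −1.83, −0.99 (adjusted p = 0.0664) and −1.50 (adjusted p = 0.00973). Against the mean of the other lines *208-ΔF* was lower by 0.79 for *Fign* (unadjusted p = 0.00065) and by 0.58 for *Nepl5* (unadjusted p = 0.00299), and higher by 1.21 for *AttC* (unadjusted p = 0.000589), each with an adjusted p of 0.747. In the same contrast 13 of the 39 antimicrobial peptide and Bomanin genes had an unadjusted p below 0.05, all higher in *208-ΔF*, beside 5.92% of all genes, and none of the 8 Turandot genes did. Other lists moved as far, with 17 of 28 sarcomere, 17 of 45 seminal fluid and 11 of 32 testis genes higher at that limit. The *208-ΔG* libraries stood apart in this contrast, with TMM factors of 1.17 to 1.47 against 0.830 to 1.08 in *208-ΔF*, and with summed sarcomere levels of 25986 to 35286 CPM against 55075 to 82544 CPM. The medians of the immune peptide and Turandot lists were 0.37 and 0.02, beside 0.09 over all genes.

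**Figure D5:**
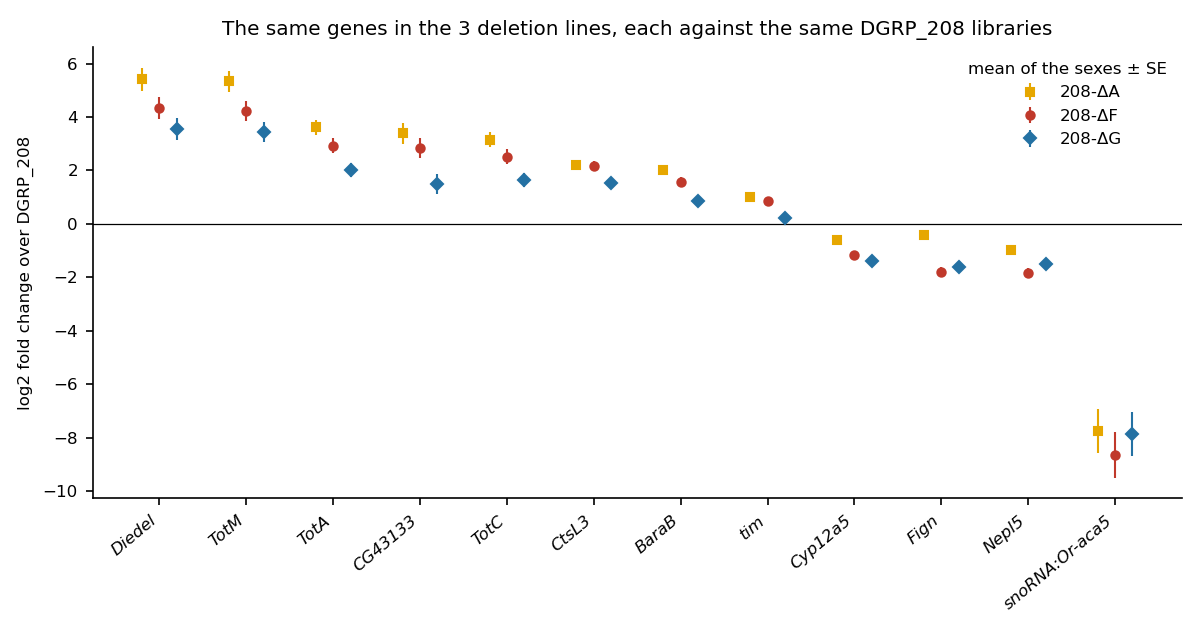
Log2 fold change of each of the 12 called genes against DGRP_208 in *208-ΔF*, *208-ΔA* and *208-ΔG*, with 1 point per line and bars of 1 SE. The lines share their control libraries, and the widest spread among the lower genes other than *snoRNA:Or-aca5* is that of *Fign*, from −0.41 in *208-ΔA* to −1.79 in *208-ΔF*.

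Of 180 genes that had been picked for differences between lines on these same libraries, 6 were higher and 4 lower in *208-ΔF* at an adjusted p below 0.05, and 75 had an unadjusted p below 0.05. These 10 genes are the called ones other than *Diedel* and *CG43133*. Since the set was chosen on the samples compared here, its counts are not independent evidence of a direction.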

How the data were processed

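Total RNA of whole flies was depleted of ribosomal RNA and sequenced. The authors filtered reads with AfterQC, aligned them with GSNAP to the dm6 genome and counted unique alignments per gene with featureCounts of the Subread package. The versions of GSNAP and Subread and the use of strand are not given in the sources used here. The deposited table holds raw counts for 17490 genes in 16 libraries, of which 17288 matched a symbol and position in the Ensembl annotation of BDGP6.

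A gene was tested if its count had a median of 2 or more over the libraries (16212). Counts were scaled by TMM and fitted with 8 group means in edgeR 4.0.16 (quasi-likelihood, 8 residual degrees of freedom, R 4.3.3), with contrasts for the sexes averaged, each sex, their difference, and *208-ΔF* against the other deletion lines. The Benjamini-Hochberg adjustment ran over all tested genes, with 0.05 as the limit for a call. Alternatives used DESeq2 1.42.0, limma 3.58.1, a per-gene linear model on GeTMM values, other scalings and filters, a replicate block, the 8 libraries alone, a chemoreceptor covariate and each library left out in turn, the lone library then being assumed to vary like the other groups. Exact 95% intervals compare summed reads and cover counting error only. Python 3.11.15, pandas 2.3.3 and matplotlib 3.10.9 were used for tables and figures, and the tests were tested on simulated data.

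The comparison, its genes and the gene lists were chosen with earlier results of these data known. Genes named are those of the *Uhg4* locus, those called or below an adjusted p of 0.1, up to 4 of smallest p per list, the leading genes of each sex, genes the study names, and sex markers. The leading genes of a sex were taken by smallest p among genes whose libraries of the lines did not overlap in that sex. *TotE*, *TotF*, *TotZ*, *Dro*, *AttA*, *AttB*, *CecA2*, *CecB*, *Drs*, *BomS3*, *BomBc1* and *Srg3* were named after their values were seen. The 30-fly samples are separate biological replicates per the study's methods.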

Additional observations from a re-analysis of the deposited data

How the results depend on the processing

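With the sexes averaged, the 12 calls became 27 at an adjusted p below 0.1, 27 with scaling by library size only, 86 with DESeq2, 45 with the median chemoreceptor level added as a covariate, 3 with only the 8 libraries in the fit and 6 when that fit left out the interaction of line and sex. The count was 11 to 16 with size factors of DESeq2, upper-quartile factors, no filter on low counts, filterByExpr, limma-voom and the linear model fitted gene by gene, although in the latter 4 of 16 calls were higher against 8 of 12 in edgeR. Leaving out single libraries gave 8 to 55. In females the 0 calls became 8 at an adjusted p below 0.1, 7 with size factors of DESeq2, 8 with library size only, 3 with no filter, 3 with filterByExpr, 70 with DESeq2, 10 with limma-voom, 17 with the linear model and 35 with the covariate, and leaving out single libraries gave 0 to 69. In males the 5 calls became 9 at an adjusted p below 0.1, 40 with DESeq2, 3 with the linear model, 15 with the covariate and 0 with only the 8 libraries, and leaving out single libraries gave 0 to 6. For the difference between the sexes DESeq2 gave 5, the linear model 8 and single libraries left out 0 to 1. Against the other deletion lines DESeq2 gave 12, the covariate 1 and single libraries left out 0 to 54. The cause of these shifts was not tested.

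Same-numbered replicates of the lines deviated in opposite directions within each sex. Over 16212 genes the correlation of their deviations from the group means was −0.80 between the females and −0.86 between the males. For other pairs of groups it ran from −0.60 to 0.53, so the libraries shared deviations across groups. The numbers were not taken to pair the libraries. With the replicate number as a block there were 12 calls with the sexes averaged, 2 in females and 6 in males, and 0 for the difference between the sexes and for the other deletion lines. Crossing the numbers of *208-ΔF* in a block over the 8 libraries, an alternative chosen after seeing the data, gave 0 calls averaged and 0 in males.

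Of 1483 values of single genes under the alternatives, 1254 kept their direction and side of the threshold, 90 lost the call, 130 gained one and 9 changed sign. The sign changes were all in genes near 0. *Ctu1* was at 0.019 with the covariate and at −0.31 to 0.24 with single libraries left out. In the same refits *TotF* ran from −1.25 to 0.74 and *Socs36E* from −0.031 to 0.22. With 2 libraries a group the precision is set by the spread between replicates more than by depth, except for *Uhg4* and its snoRNAs, where single reads count.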
